A study of Rattus norvegicus with 18 samples.

Results

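Transcript levels were compared between the dorsal hippocampus (dHC) and the prelimbic cortex (PL) of untrained rats, in 3 dHC-Naive pools against 3 PL-Naive pools. These 6 libraries were taken by their labels from the 18 of the series. All rats were adult Long-Evans, an outbred strain, and naive rats had stayed in the home cage. The other 12 libraries came from rats trained in inhibitory avoidance, a task with a foot shock, and killed 1 h or 6 d later (3 pools for each region and time). Each pool combined the RNA of 5 rats, so a value is an average over 5 animals and the spread between single rats cannot be seen. Tissue was taken by 19-gauge punches, between bregma 3.7 and 2.2 mm for PL and between −2.3 and −4.52 mm for dHC. The labels do not say whether a rat gave tissue to both a dHC and a PL pool. In the titles every PL library, naive or trained, has a lower running number than every dHC library. What this order stands for is not stated, and region and order cannot be told apart.

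The dorsal hippocampus is a folded cortical structure of few principal cell layers (the CA fields and the dentate gyrus) and is needed for memory of places and events. The prelimbic cortex is a layered medial prefrontal area that takes part in the control of avoidance and fear and in the recall of older memories. Both hold glutamatergic projection neurons, GABAergic interneurons and glia, while the projection neurons of the regions differ in developmental origin, connections and gene use. In tissue extracts, fewer cells of a type and less RNA per cell cannot be told apart. The tables give Ensembl gene IDs, 0 of 32662 of which could be paired with a symbol, so the regions could not be checked against their marker genes, and the results are given for groups of genes and for 4 genes by ID.

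Naive libraries held 7687831 to 8874826 gene counts in dHC and 8145006 to 9215695 in PL. At this depth 3 counts, taken here as the limit of detection, were worth about 0.341 CPM (counts scaled to a common library total) in PL and 0.356 CPM in dHC, for counting error alone. Each dHC pool had a read for 18068 to 18142 genes and each PL pool for 18257 to 18284, so the pools of the regions did not overlap. The 10 most abundant genes took 3.20% ± 0.0870 of the gene counts in dHC and 2.78% ± 0.0646 in PL (SD, n = 3), and the 100 most abundant took 16.3% ± 0.201 and 15.7% ± 0.311, again with no overlap. Reads falling on more than one gene (the ambiguous share) behaved likewise, with 0.684% ± 0.0287 in dHC and 0.626% ± 0.00778 in PL. Each of these 4 differences reached the smallest p that 3 pools against 3 allow (p = 0.1, adjusted p = 0.2 over 8 measures, two-sided exact permutation test), so none passed. The part of these measures in the gene results was not tested.

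The first question was how many genes differed between the regions at rest and by how much. Of 14784 genes tested, 3384 (22.9%) were higher in dHC and 3455 (23.4%) higher in PL by edgeR's quasi-likelihood test at an adjusted p under 0.05, together 46.3%. Genes that passed are called here. Which direction held more genes turned with the scaling (3578 higher in dHC and 3228 in PL with upper-quartile factors) and with the libraries fitted (3428 and 3287 with the 6 naive ones). The typical difference was small: over all genes tested the median absolute log2 difference was 0.28, the upper quartile 0.60 and the 99th percentile 3.42. Numbers at the far end depended on how genes without a read in a region were treated. By fitted values, 40 called genes of dHC and 50 of PL had a log2 difference over 4, and 21 and 27 over 5. With the 8 dHC and 14 PL genes that had no read in the other region set at a lower bound (3 counts per library there), the log2 difference was over 2 for 252 called genes of dHC and 268 of PL, over 3 for 100 and 100, over 4 for 33 and 36, and over 5 for 14 and 13. The bound lowers only genes without a read, while genes with a few reads there keep their fitted value. How close these counts are for the 2 directions is therefore partly set by the rule. The median difference over all genes tested was −0.00 on the log2 scale.

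The size of the difference was then tested itself, against a log2 difference of 1. Of the genes tested, 924 (6.25%) lay beyond 2-fold at an adjusted p under 0.05 (edgeR's glmTreat). Of these, 450 (3.04%) were higher in dHC, with a median log2 difference of 2.03, and 474 (3.21%) were higher in PL, with a median of −2.09 (2.03 and −2.08 with genes without a read in the other region at their bound). Most were genes of moderate level, with a median of 23.6 CPM in dHC for the former and 21.7 CPM in PL for the latter, but 83 and 85 reached 100 CPM or more in their region. In the other region 25.1% of the 450 and 26.2% of the 474 lay under 1 CPM. The 450 genes took 4.38% ± 0.0359 of the gene counts in naive dHC and 1.42% ± 0.00807 in naive PL (SD, n = 3). The 474 genes took 0.980% ± 0.0118 in dHC and 3.35% ± 0.0559 in PL. All 924 genes together made up 5.36% of the gene counts in naive dHC and 4.77% in naive PL.

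**Figure D1:**
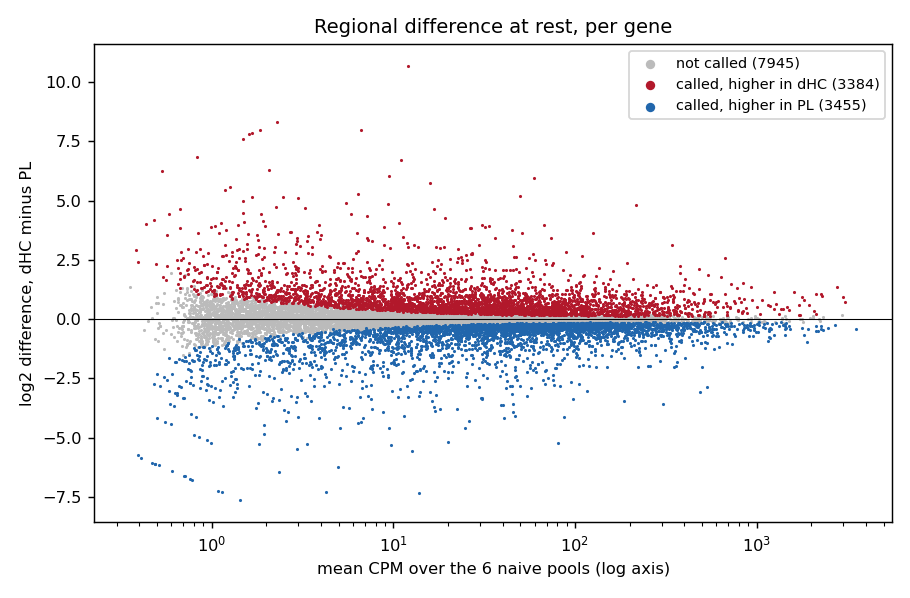
Log2 difference (dHC minus PL) against the mean CPM over the 6 naive pools (log axis; genes without reads in a region at their fitted value), a point for each of the 14784 genes tested, coloured by call. The 3384 red points (dHC) and the 3455 blue points (PL) lie on either side of 0 at every level, and differences beyond a log2 value of 5 are seen in both directions.

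Pools of a region were much more alike than the regions. For the 14302 genes with a mean of at least 1 CPM, the median absolute log2 difference between 2 pools was 0.126 to 0.132 within dHC and 0.122 to 0.142 within PL, against 0.288 to 0.313 for the 9 combinations of a dHC with a PL pool. The root mean square, which gives weight to genes with large differences, was 0.283 to 0.304 within dHC, 0.286 to 0.305 within PL and 0.743 to 0.778 between the regions. The spread was the same size in both regions, with a median SD per gene of 0.112 in dHC and 0.113 in PL on the log2 scale, and 51.0% of the genes had the larger SD in PL. The first principal component of the 6 libraries held 80.0% of the variance and had the dHC pools at 44.6 to 45.1 and the PL pools at −46.6 to −42.4. The second held 5.43% and mainly set dHC pool 2 (21.9) apart from dHC pools 1 and 3 (−8.74 and −13.3).

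Every dHC pool lay above every PL pool in CPM for 4199 genes, and every PL pool above every dHC pool for 3834, together 54.3% of the genes tested. Of the 6839 called genes, 6548 (95.7%) had no such overlap and 291 had some. The separation was also seen for 1485 genes that were not called. Of the 924 genes beyond 2-fold, 922 had none.

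Above 1 CPM, the share of called genes rose with the level, as did the precision. Genes with a mean of 1 to 5 CPM were called in 32.0% of 2779 cases, with a median SE of 0.31. Genes of 20 to 100 CPM were called in 49.8% of 5509 cases (median SE 0.09), and genes of 500 CPM and over in 74.2% of 271 cases (median SE 0.06). The size of the differences had no single trend with level. The share beyond 2-fold was 8.06% at 1 to 5 CPM, 6.73% at 5 to 20, 5.05% at 20 to 100, 4.79% at 100 to 500 and 5.17% at 500 CPM and over, and the median absolute log2 difference went from 0.46 at 1 to 5 CPM to 0.21 at 20 to 100 CPM and 0.31 at 500 CPM and over. Of the 482 genes under 1 CPM, 32.4% were called and 12.9% lay beyond 2-fold. Their median absolute log2 difference was 0.75 and their median SE 0.51. The smallest called difference was 0.43 at 1 to 5 CPM and 0.12 at 100 to 500 CPM, so at low levels small differences were not called. The parts of depth and of the spread between pools in this were not tested.

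Among called genes, direction also went with level above 1 CPM. Among called genes of 1 to 20 CPM, 1380 were higher in dHC and 1030 higher in PL, so that 57.3% were higher in dHC. Among called genes of 100 CPM and over, 604 were higher in dHC and 928 higher in PL, so that 39.4% were higher in dHC. This split was noticed in the data. It was on the same sides in the trained pools, with 56.1% and 42.2% at 1 h and 55.4% and 44.1% at 6 d. These are other libraries than those of the naive difference, though all 18 share the gene filter, the scaling step and an estimate of the spread. It also stayed on these sides in each of the 16 alternative analyses of the naive pools, between 56.4% and 59.7% at the lower level and between 38.1% and 43.2% at the higher. These alternatives reuse the libraries in which the split was noticed, and none scaled by level, so they give it no separate support. The larger share of counts in the 100 most abundant genes of dHC was a measure of these same libraries, and its part in the split was not tested.

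**Figure D2:**
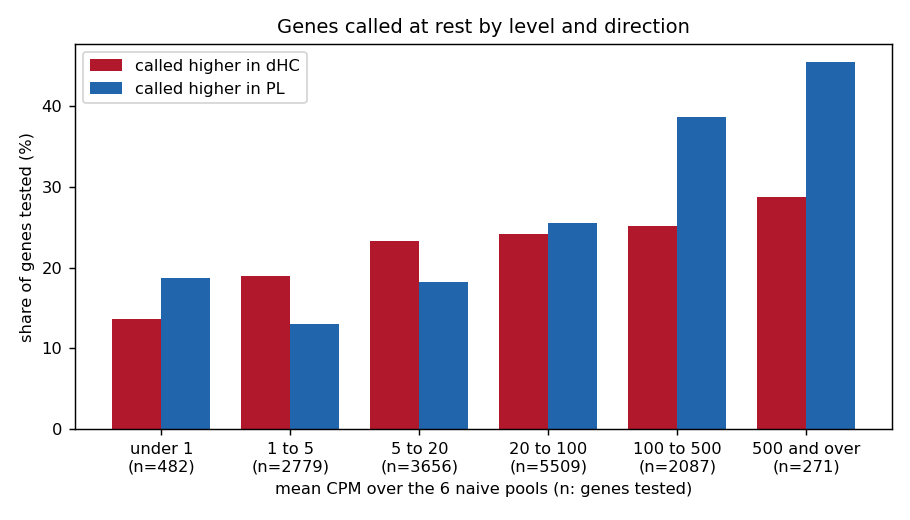
Share of genes tested that were called higher in dHC (red) or in PL (blue), in percent, by mean CPM over the 6 naive pools; n is the number of genes tested in a class. Genes higher in dHC outnumber those higher in PL at 1 to 5 CPM (527 and 363), and the reverse holds at 100 to 500 CPM (526 and 805) and under 1 CPM (66 and 90).

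Most genes were in use in both regions. A mean of at least 1 CPM was reached by 14638 genes in either region and by 13793 (94.2%) in both, with 438 in dHC alone and 407 in PL alone. At a mean of at least 10 CPM the shared part was 91.3% of 10318 genes. These classes include genes that lie just on either side of the limit, and presence was therefore set against detection next.

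Genes were counted as restricted to a region when their mean reached 1 CPM there and no pool of the other region had more than 3 counts. This held for 52 genes in dHC and 73 in PL, a description of detection with no test. The balance turned with the limits, at 31 and 19 from a mean of 2 CPM. It was 372 and 367 with up to 10 counts in the other region. Leaving out a pool of the other region can only add genes, and the 52 were 83 without PL pool 2. Of the 52, 8 had no read in any of the 3 PL pools. Of the 73, 12 had none in any dHC pool. The genes restricted to dHC had the higher levels. Their median was 2.48 CPM against 1.42 CPM for those restricted to PL, 6 of 52 and 5 of 73 reached 5 CPM, and 4 and 1 reached 10 CPM. At the low end 21 of the 52 and 54 of the 73 lay under 2 CPM, close enough to the limit that their absence elsewhere is weakly measured. For the 8 and 12 genes with no read in the other region, the level was at least 3.14 to 70.4 times and at least 2.88 to 8.04 times the limit of 3 counts per library. These levels are means over 3 pools, and no minimum was asked of each pool. One gene of the 8 ran from 0.226 to 7.80 CPM over the dHC pools, with its lowest pool under the limit of detection. Together the restricted genes took 0.0197% ± 0.00141 of the gene counts in naive dHC for the 52 and 0.0173% ± 9.50e-05 in naive PL for the 73 (SD, n = 3). Of the 450 and 474 genes beyond 2-fold, 45 and 55 were restricted in this sense, and the others had more than 3 counts in at least 1 pool of the other region or lay under 1 CPM in their own.

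The 2 genes with the largest fitted difference in each direction, among called genes of at least 1 CPM with no overlap of the pools, were looked at pool by pool. Fitted values of genes with 0 counts in a region are not measured folds, so this order is not one of measured size. Among restricted genes with reads in both regions the ratio of mean CPM reached 324 in dHC and 195 in PL. Each ratio rests on 1 read in all pools of the other region, under the limit of 3 counts, and is itself poorly measured. ENSRNOG00000002549 had 19.6, 23.2 and 29.3 CPM (174, 178 and 259 counts) in naive dHC pools 1 to 3 and 0 counts in each naive PL pool. With 24.0 ± 4.91 CPM (SD, n = 3) it was at least 70.4-fold higher in dHC, against 3 counts per library (edgeR adjusted p = 6.84e-15). It had the highest level of the 52 genes restricted to dHC, and no trained pool of PL had more than 2 counts. Trained dHC pools were at 24.6 to 33.8 CPM at 1 h and 16.8 to 21.6 CPM at 6 d, overlapping the naive ones.

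ENSRNOG00000010312 had 5.97, 4.03 and 3.74 CPM in naive dHC pools 1 to 3 and 0 counts in each naive PL pool. It was at least 13.4-fold higher in dHC on this scale (edgeR adjusted p = 6.81e-09), with 31 to 53 counts per dHC pool behind the value. Trained dHC pools had 1.35 to 3.80 CPM at 1 h and 2.78 to 3.97 CPM at 6 d, partly below the naive range, and trained PL pools 0 to 2 counts. The change of its regional difference did not pass at 1 h (edgeR adjusted p = 0.720) or at 6 d (edgeR adjusted p = 1.00). On the log2 scale it was −3.55 (SE 2.03) at 1 h and −3.10 (SE 1.96) at 6 d. These estimates rest on the 0 to 2 counts in PL pools, so the test says little for this gene. The change within dHC alone was not tested.

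On the side of PL, ENSRNOG00000030111 had 27.9, 31.2 and 23.3 CPM in naive PL pools 1 to 3 against 3, 1 and 0 counts in naive dHC pools 1 to 3. Its mean CPM was 176 times higher in PL (95% exact interval of the ratio of counts 68.2 to 646, for counting error alone), a log2 difference of −7.35 (SE 0.31, edgeR adjusted p = 4.07e-17). It had the highest level of the 73 genes restricted to PL and stayed at 24.2 to 31.5 CPM in the 6 trained PL pools, with 0 to 4 counts in the 6 trained dHC pools. ENSRNOG00000056126 had 1.84, 4.29 and 2.46 CPM in naive PL pools 1 to 3 and 0 counts in each naive dHC pool, at least 8.04-fold higher in PL (edgeR adjusted p = 7.34e-08). Its naive level rested on 17, 39 and 20 counts, and PL pool 2 was the high one. In trained rats it had 1.91 to 2.74 CPM in PL and 0 or 1 counts in dHC.

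**Figure D3:**
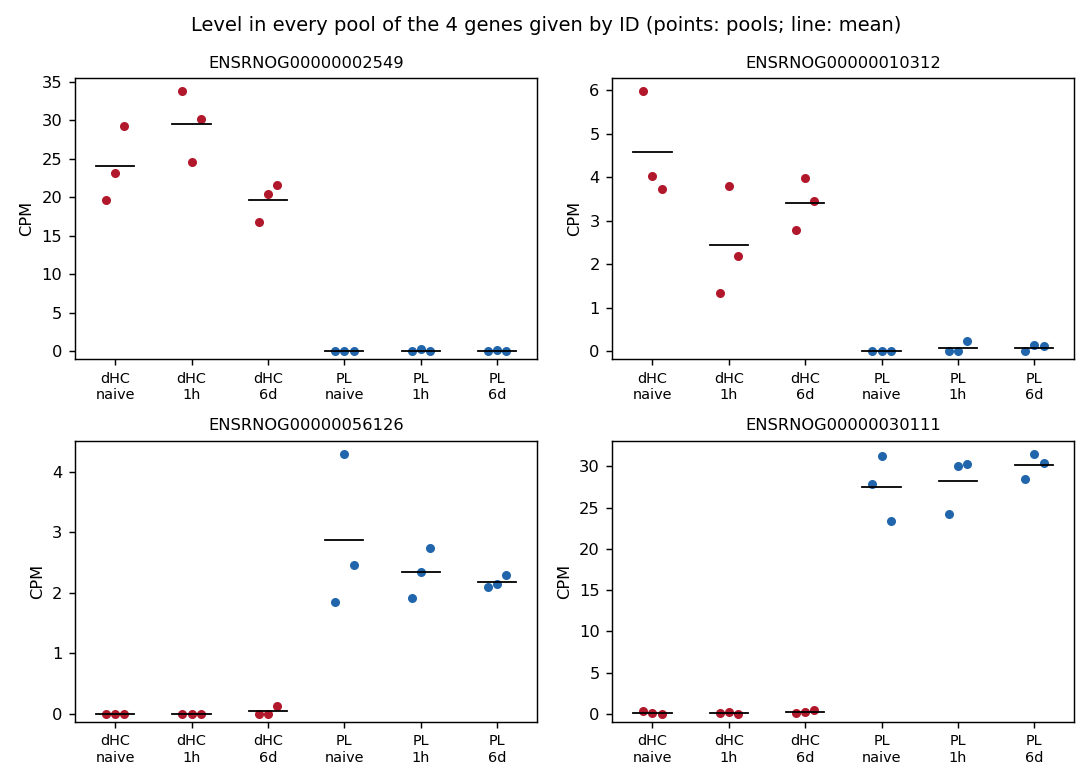
CPM of the 4 genes given by ID in each of the 18 pools (points; the line is the mean of the 3 pools), by region and condition. ENSRNOG00000002549 and ENSRNOG00000010312 lie at or near 0 in each PL pool, and ENSRNOG00000056126 and ENSRNOG00000030111 at or near 0 in each dHC pool, in naive and trained rats alike.

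Genes with similar levels in both regions were identified by the 95% interval of their log2 difference, since a gene that is not called is not thereby shown to be alike. The interval lay within 0.5 in either direction for 6354 genes (43.0% of those tested), called shared here. They held 60.1% ± 0.227 of the gene counts in naive dHC and 60.8% ± 0.165 in naive PL (SD, n = 3). Calls and likeness were not exclusive: 1482 of the shared genes were called, 586 higher in dHC and 896 higher in PL, with a difference that passed the test but an interval within these bounds. A further 3073 genes (20.8%) were neither called nor shared. Their median level was 2.84 CPM against 47.1 CPM for shared genes, and with these libraries they could be placed in neither class.

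The same regions were then compared in trained rats. Their counts are not compared in the naive log2 differences. All 18 libraries share the gene filter, the scaling step and an estimate of the spread, so calls at rest and after training are not fully independent. Regional differences were found for 7084 genes (47.9%) at 1 h and 6774 (45.8%) at 6 d, against 46.3% at rest. Of the 3384 genes higher in naive dHC, 3325 (98.3%) were higher in dHC at 1 h and 3354 (99.1%) at 6 d, and 2759 (81.5%) and 2799 (82.7%) were called so. Of the 3455 genes higher in naive PL, 3389 (98.1%) and 3423 (99.1%) were higher in PL, and 2821 (81.6%) and 2831 (81.9%) were called so. Calls in the opposite direction numbered 3 and 3 at 1 h and 0 and 0 at 6 d. In all 3 conditions 5053 genes were called in one direction, 2517 higher in dHC and 2536 higher in PL.

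Genes beyond 2-fold at rest were close to this size in trained rats too. Their median log2 difference for the side of dHC was 2.03 at rest, 1.88 at 1 h and 1.96 at 6 d. For the side of PL it was −2.09, −1.96 and −2.08. They were chosen for their size at rest, which by itself makes the value at rest the larger one. Of the 450, 444 were called higher in dHC at 1 h and 448 at 6 d, and of the 474, 473 and 474 were called higher in PL. Beyond 2-fold in each of the 3 conditions were 337 of the 450 and 343 of the 474. For 903 of the 924 (97.7%) the 9 pools of one region all lay above the 9 of the other, as they did for 29.7% of all genes tested. The 9 include the 3 naive pools that chose these genes, and 922 of the 924 had no overlap there. The 97.7% is therefore no measure of the trained pools alone. The share of gene counts taken by the 450 was 4.37% ± 0.0479 in dHC and 1.46% ± 0.0215 in PL at 1 h, and that of the 474 was 1.00% ± 0.0276 and 3.23% ± 0.00857 (SD, n = 3).

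**Figure D4:**
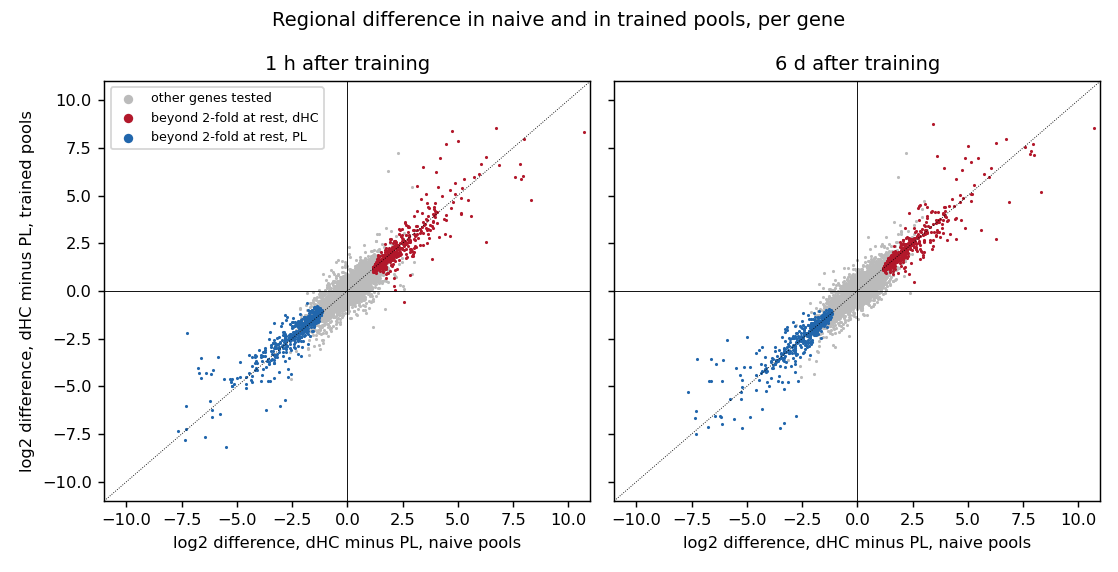
Log2 difference (dHC minus PL) in trained pools, at 1 h (left) and 6 d (right), against that in naive pools, a point for each of the 14784 genes tested, with genes beyond 2-fold at rest in colour; the dotted line marks equal values. Of the 924 coloured genes, 923 at 1 h and 924 at 6 d have the sign they had at rest.

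Across genes, which are not independent replicates, Pearson's r between the naive difference and that in trained pools was 0.921 at 1 h and 0.933 at 6 d (n = 14784 genes from libraries of different pools). The width of the distribution was also close, with an SD of the log2 difference over genes of 0.85 at rest, 0.85 at 1 h and 0.87 at 6 d. Of the 6354 shared genes, 5430 (85.5%) were within the same bounds at 1 h and 5540 (87.2%) at 6 d, and 5001 in all 3 conditions. Of all 14784 genes tested, 6322 were within these bounds at 1 h and 6366 at 6 d. Among the 6354, 1993 were called at 1 h and 1711 at 6 d, against 1482 at rest. The largest absolute log2 difference of any of the 6354 was 1.16 at 1 h and 0.92 at 6 d.

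Restriction to a region, which depends on single reads near the limit, was followed in the same way. Of the 52 genes restricted to dHC at rest, 30 met the same limits at 1 h, 37 at 6 d and 25 at both times. Of the 73 restricted to PL, 36, 45 and 29 did. The level in the higher region was still at least 1 CPM for 43 (1 h) and 48 (6 d) of the 52 and for 51 and 62 of the 73. Counts in the other region stayed low, with at most 9 (1 h) and 7 (6 d) counts in a PL pool for the 52 and at most 14 and 8 in a dHC pool for the 73.

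The test of whether the regional difference itself changed with training called 14 genes (0.0947%) at 1 h and 0 at 6 d by edgeR, with 558 genes at an unadjusted p under 0.05 at 6 d. The 558 are a smaller share of the 14784 genes tested than the 0.05 that this limit would pass with no change. The count of 14 was 6 without dHC 1 h pool 1, 7 without PL naive pool 1, dHC naive pool 1 or PL 1 h pool 1, 9 without PL naive pool 2, 27 without PL naive pool 3 and 117 without a filter on low counts. Of the 14 genes, 13 were called at rest, as were 46.3% of all genes tested (5 on the side of dHC, 8 on that of PL). The test that chose them uses the naive values, so nothing is read from this share.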

How the data were processed

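The authors deposited a table of raw counts of reads per Ensembl gene for each library. Per the submitters' processing notes, the build was Rnor_6.0 and the tools included DESeq2, bedtools 2.17.0 and Picard 1.126. Aligner, counter, annotation release and strand setting: not given in the sources used here. Therefore overlapping, antisense and near-identical genes are uncertain. Per the labels' protocols, 200 ng of RNA went into a stranded, poly(A)-selecting kit, with 12 PCR cycles and paired 150 nt reads. The 5 rows of reads given to no gene were left out of library sizes and tests; in naive libraries they comprised unaligned reads (44.3% to 51.8%) and reads outside gene models (10.1% to 12.6%). The 3 pools of a group are described as independent by the labels.

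Tests used R 4.3.3 with edgeR 4.0.16 (glmQLFit, glmQLFTest and glmTreat, two-sided, TMM factors, filterByExpr by group, Benjamini-Hochberg over all genes tested). The fit held all 18 libraries, with the 4 trained groups adding to the estimate of the spread and entering the gene filter and the scaling step. SEs came from the F statistic, and intervals are at 95%. CPM are counts divided by the gene counts of the library. Principal components and pool distances used edgeR's log2 CPM with a prior count of 2. Alternatives used DESeq2 1.42.0, limma 3.58.1 (voom), other scalings, filters and samples.

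The rule for genes given by ID took the largest differences among called genes with at least 1 CPM and no overlap, limited to 2 in each direction, since IDs could not be paired with symbols through the table of assembly GRCr8. The 40 gene lists, 22 of them markers, were therefore not tested. Comparison, rules and lists were chosen with earlier results of these data known. Pools of a naive group differed by more than sampling noise (chi-square per degree of freedom 2.27 to 3.25). On simulated counts for the naive contrast (14560 genes, a single draw), edgeR recovered 49.3% of 67 1.41-fold, 82.1% of 67 2-fold and 100% of 66 4-fold changes, and 7.23% of calls were false, in a design with far fewer changed genes than the data have calls. The test against a 2-fold difference passed 89.4% of 4-fold and 0% of 2-fold changes.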

Additional observations from a re-analysis of the deposited data

Results flagged for a closer look

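The regional difference was not the same at 1 h as at rest for 14 genes, by the test of the difference between the 2 contrasts (edgeR, smallest adjusted p = 0.000114). The genes were chosen by a test on these same values at rest and at 1 h. The numbers below describe the list and give it no further support. The change was towards dHC for 5 and towards PL for 9. The median absolute log2 difference between the regions of these genes was 0.58 at rest and 0.69 at 1 h, larger at 1 h for 10 of the 14. For 5 the sign of the difference was reversed at 1 h, and for 3 of these the regional difference was called both at rest and, with the opposite sign, at 1 h. The count ran from 6 to 27 with each naive or 1 h pool left out, and was 22 when the no-feature share was a covariate. The cause was not tested.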

How the results depend on the processing

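Counts of genes called at rest stayed within 1.5 times of 6839 in the 16 alternatives, from 6107 without PL naive pool 1 to 6887 with the replicate number as a block in all 18 libraries. The range was 6107 to 6328 with each naive pool left out (3112 to 3211 higher in dHC, 2985 to 3186 higher in PL), and 833 to 884 for genes beyond 2-fold, 5854 to 5970 for shared genes. In trained pools it was 6319 to 6534 at 1 h and 6264 to 6316 at 6 d. Restricted genes ran from 57 to 83 in dHC (83 without PL naive pool 2) and 70 to 94 in PL. Leaving out a pool of the other region can only add genes, since the rule sets a limit on each of them. With a pool of their own region left out they numbered 57 to 58 in dHC and 70 to 80 in PL. Counts that rest on a chosen limit moved with it by construction. A cut of the estimate at a log2 difference of 1 gave 1760 genes in place of 924. Shared genes numbered 1734 with bounds of 0.25 and 11015 with bounds of 1. Restricted genes in dHC and PL numbered 184 and 224 from 0.5 CPM, 31 and 19 from 2 CPM, 8 and 12 with 0 counts in the other region and 372 and 367 with up to 10. The median difference over all genes moved by at most 0.0227 with the scaling (library totals alone). The 4 genes given by ID passed in each of the 16 alternatives, with adjusted p up to 1.55e-06. Deviations of same-numbered dHC and PL pools correlated at −0.00654 to 0.0272, so no effect shared by a number was seen; whether the numbers pair the pools by design is not stated in the labels. With the number as a block the count was 6475 in the 6 naive libraries. Planned fits on gene lists were not run for want of symbols. The block over 18 libraries and the alternatives of the trained contrasts were chosen after seeing the data.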

Other observations

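Some genes were called in some conditions and not in others. Of the genes called at rest, 678 (9.91%) were called in neither trained condition, with a median absolute log2 difference of 0.35 at rest. Conversely, 481 genes were called in one direction both at 1 h and at 6 d but not at rest. Of these, 469 had that direction at rest too, with a median absolute log2 difference of 0.18 at rest and 0.37 at 1 h. The difference between conditions was not tested for these genes as groups, and this does not show that their regional difference changed.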
